A study of Mus musculus with 1037 samples.

Results

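The TAM receptors *Tyro3*, *Axl* and *Mertk* and their ligands *Gas6* and *Pros1* were followed in single epithelial cells of the mouse hair follicle, from late anagen (AnaVI) into catagen (CatVI and CatVII). The 5 genes were taken by symbol, and each matched 1 of the 55335 gene rows through its Ensembl identifier. Cells were kept when at least 2000 genes had a count, which left 463 of the 1036 cells with counts. Every animal was wild type, and the labels name no treatment. Cells of 3-6 mice were pooled for each stage before sorting by flow cytometry, and full-length cDNA of single cells was sequenced with Smart-seq2. The AnaVI sorts came from the lower outer root sheath (LOS, 39 kept cells) and from a region labelled upper-middle, sorted as MOS (38 cells) and UOS (83.6% of its sorted cells kept). All catagen sorts came from the upper outer root sheath. At CatVI they filled 6 plates whose names start with P17f, where P17 is postnatal day 17 as read from the titles and the f is not explained. Plates pl1 and pl2 held PhagoHFSC_alive cells (19 and 9 kept), pl5 held PhagoHFSC_apop cells (15 kept) and pl6 held NonPhagoHFSC_apop cells (14 kept), while pl3 and pl4 (NonPhagoHFSC_alive) had 0 kept cells and give no value. At CatVII the sorts were OSalive (80.1% of its sorted cells kept) and OSapop (92 cells). How Phago and NonPhago cells were told apart is not given in the sources used here. The alive and apop names are the labels' own, and the study's methods describe staining with annexin V and DAPI in flow cytometry.

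TAM receptors are receptor tyrosine kinases of the cell surface. They do not touch the dying cell directly. GAS6 and protein S, the products of *Gas6* and *Pros1*, bind phosphatidylserine exposed on a dying cell through a vitamin K-dependent Gla domain and bind the receptor with their other end, so that they bridge corpse and phagocyte. MERTK is best known from macrophages and the retinal pigment epithelium, AXL from dendritic cells and inflamed tissue, and TYRO3 from the nervous system. GAS6 binds all members of the receptor family, whereas protein S acts mainly through TYRO3 and MERTK. The study asked how outer root sheath cells, which are not professional phagocytes, clear dead neighbours while the follicle regresses.

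*Tyro3* (ENSMUSG00000027298.17) lies on chromosome 2 of GRCm39 from 119628214 to 119648738 on the plus strand, and *Mertk* (ENSMUSG00000014361.5) on the same chromosome and strand from 128540729 to 128645080. *Axl* (ENSMUSG00000002602.16) lies on chromosome 7 from 25456535 to 25488329 on the minus strand. *Gas6* (ENSMUSG00000031451.6) lies on chromosome 8 from 13515371 to 13544824 on the minus strand, and *Pros1* (ENSMUSG00000022912.8) on chromosome 16 from 62674275 to 62749710 on the plus strand. No exon base of *Tyro3* or *Axl* is shared with another annotated gene. Exons of genes on the opposite strand cover 3.02% of the *Mertk*, 2.80% of the *Gas6* and 0.51% of the *Pros1* exon bases, and these counts do not keep strand.

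The promoters of *Tyro3* and *Mertk* are shown because these members had the highest ratios of OSalive to UOS. RefSeq windows of GRCm38.p6, 250 bases before to 50 bases after the start, were found for all 5 members. The 250 bases before the start are printed 5′ to 3′ on the strand of the gene, at chr2:119799264-119799513 for *Tyro3* and at chr2:128698665-128698914 for *Mertk*, both on the plus strand. Capitals mark GGGCGG on either strand (CCGCCC on the printed strand), a GC box of the kind that SP1 binds.
Tyro3: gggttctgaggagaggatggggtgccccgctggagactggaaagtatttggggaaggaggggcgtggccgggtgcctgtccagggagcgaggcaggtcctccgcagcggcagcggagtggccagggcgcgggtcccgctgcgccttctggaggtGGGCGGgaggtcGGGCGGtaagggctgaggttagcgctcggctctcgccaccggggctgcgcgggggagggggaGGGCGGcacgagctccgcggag
Mertk: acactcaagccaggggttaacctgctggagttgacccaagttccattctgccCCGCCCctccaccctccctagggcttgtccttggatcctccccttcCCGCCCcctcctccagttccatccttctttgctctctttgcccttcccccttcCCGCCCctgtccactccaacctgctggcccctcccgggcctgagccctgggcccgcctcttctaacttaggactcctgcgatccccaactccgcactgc
The whole 300-base window of *Tyro3* held 6 GGGCGG matches, counting overlapping ones, and that of *Mertk* 4. *Axl* had 2, *Gas6* 4 and *Pros1* 5, so that all 5 members carried the motif, against 35.7% of all 32851 promoter windows. GC content was 73.3% in *Tyro3*, 66% in *Mertk*, 66.7% in *Pros1*, 60.3% in *Axl* and 58.3% in *Gas6*, beside a median of 52.7% over all windows. AGGTCA, the half-site of retinoid X receptor dimers, was searched on both strands and was in none of the 5 windows, while 16.3% of all windows held it. The same held for TATAAA, the core of the TATA box, found in 13.6% of all windows. These letters describe the windows only.

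Depth differed widely between the groups. The median cell held 90483 gene counts on P17f_pl6, 108598 in LOS, 471277 in UOS, 482288 in OSapop and 2182588 in OSalive, with the other groups between 148140 and 299387. One identifier outside the annotation used held 65.5% of all counts, and 79.2% of counts were on identifiers outside it. Levels below are CPM, the counts per 1000000 gene counts, summed over the cells of a group, with exact Poisson 95% intervals. No animal is named, so each group is 1 sample without replicates, and there is no test between groups. All intervals therefore cover counting error only, and they take each read as an independent count. Smart-seq2 reads carry no molecular identifiers, so amplified copies of 1 molecule are counted apart. The intervals can thus be too narrow even for counting error. As a ruler for what a repeat can differ by, plates pl1 and pl2 carry the same sort label. Their members differed by a log2 ratio between −0.14 and 1.08, and 3 of the 5 (*Tyro3*, *Axl* and *Pros1*) were at least 2-fold higher on pl1, beside 21.8% of all genes higher and 21.5% lower with no minimum on counts. *Axl* was the only one of them with 100 counts over both plates, where 32.5% of genes were higher and 12.8% lower. Among the cells, 160 well labels occurred in 2 cells each, all in UOS, OSalive and OSapop, and no such pair had identical counts. At least 1 of 9 keratinocyte marker genes (*Krt5*, *Krt14* and others) had counts in every kept cell except 1 on P17f_pl2. The bulge stem cell marker *Cd34* of that list had a count in only 1 cell each of pl1, pl2 and pl5. It was at 1.46, 9.71 and 1.78 CPM there, against 80.6 CPM in UOS. Marker genes of other cell types were found as well. In LOS 22 of the 39 cells were marker-positive. The rule asked for at least 2 marker genes of macrophages, endothelium, melanocytes or muscle and pericytes, or at least 3 of fibroblasts. These 22 cells held 68.7% of the LOS counts. All 39 LOS cells also had at least 2 keratinocyte markers, so the rule does not show that the 22 were other cell types. The same rule marked 19 UOS cells (22.6% of counts), 15 OSalive cells (11.5%), 9 of 92 OSapop cells (11.8%) and between 0 and 2 cells in each other group.

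*Tyro3* differed between the stages. It was low in all 3 AnaVI sorts, at 1.3997 CPM (0.78 to 2.31, 15 counts) in LOS, 1.87 CPM (1.07 to 3.04) in MOS and 2.59 CPM (2.22 to 3.0009) in UOS. In CatVII it was 13.8 CPM (13.4 to 14.2, 3964 counts) in OSalive and 15.02 CPM (14.1 to 15.9) in OSapop. Both CatVII sorts thus stood above all 3 anagen sorts, without overlap of their intervals. The CatVI plates spanned the whole range, with 9.12 CPM (6.77 to 12.02) on pl1, 4.42 CPM (2.12 to 8.12) on pl2, 17.4 CPM (13.7 to 21.7) on pl5 and 1.09 CPM (0.13 to 3.93) on pl6. The pl6 value rested on 2 counts and the pl2 value on 10. On pl1, 1 cell held 74% of the *Tyro3* counts, and the plate was at 2.59 CPM without it, the level of UOS. In order, pl5, OSapop and OSalive had overlapping neighbours, as did pl1 with pl2 and pl2 with UOS. UOS, MOS, LOS and pl6 overlapped in turn. The one step without overlap of these intervals lay between OSalive and pl1.

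*Tyro3* was also patchy within groups. At their own depth, 68 OSalive cells (54.4%) had a *Tyro3* count, with a median over cells of 3.26 CPM and a highest cell of 80.6 CPM. In UOS 17 cells had one (15.2%), and the highest cell was at 27.4 CPM. Since OSalive cells were sequenced more deeply, every cell was also thinned to 50000 gene counts, and shallower cells were left out. At that common depth 39 OSalive cells (31.5%, exact binomial limits 23.4 to 40.4) and 20 of 85 OSapop cells (23.5%, 15.004 to 33.97) had a *Tyro3* count. The share was 5.41% in UOS (6 cells, 2.01 to 11.4), 2 of 32 in MOS (6.25%, 0.77 to 20.8) and 0 of 23 in LOS, which allows up to 14.8%. The CatVII shares thus lay above the UOS share at equal depth as well. On the CatVI plates between 1 and 4 cells had a count, and the limits of all 4 plates overlapped those of both UOS and OSalive.

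**Figure D1:**
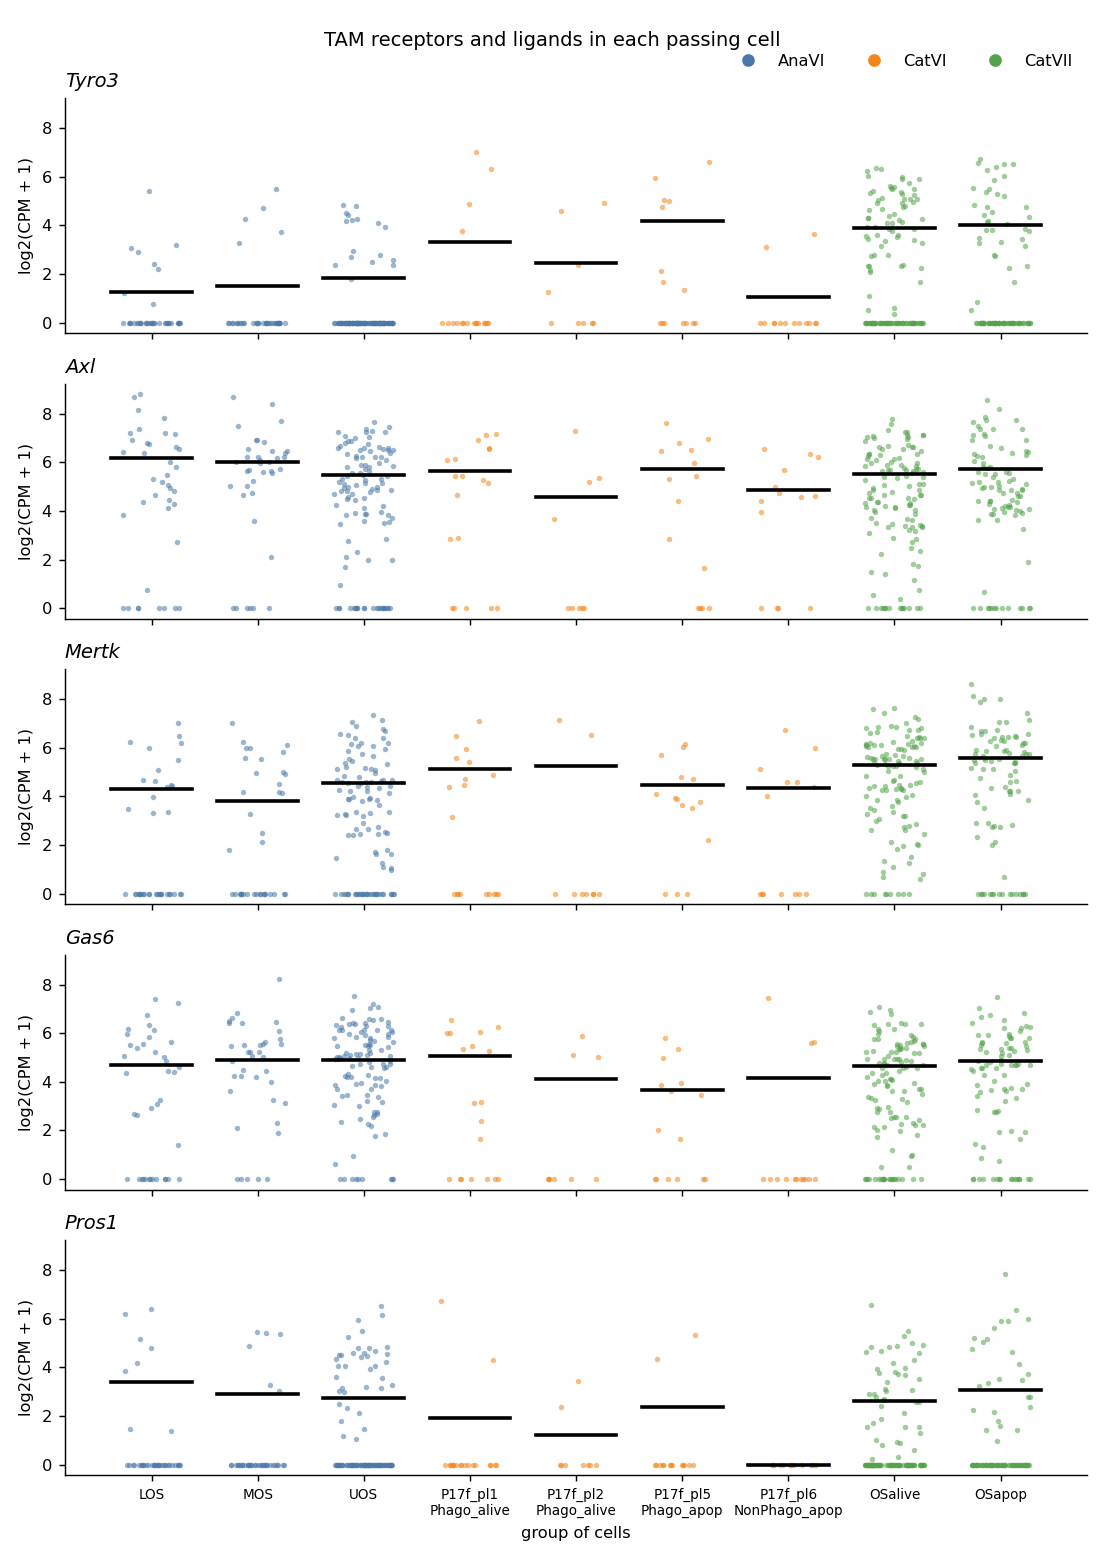
Each point is 1 kept cell, placed by its log2(CPM + 1) of the named gene, and black bars give the CPM of the summed counts of the group on the same scale. *Tyro3* bars are low in the AnaVI sorts and high in OSalive and OSapop, while *Axl* and *Gas6* bars stay within a narrower band.

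*Axl* was detected in most cells of 8 of the 9 groups and had the highest level in the AnaVI sorts of the lower and middle follicle. It was at 71.9 CPM (66.96 to 77.2) in LOS, 63.2 CPM (57.98 to 68.8) in MOS and 43.5 CPM (41.9 to 45.1) in UOS. In CatVII it was 45.2 CPM (44.4 to 45.95) in OSalive and 51.9 CPM (50.3 to 53.6) in OSapop. These values differed little from UOS in either direction. The CatVI plates held 48.5 CPM (pl1), 22.96 CPM (pl2), 51.4 CPM (pl5) and 28.3 CPM (pl6). Neighbours in this order had overlapping intervals except for MOS over OSapop and UOS over pl6. Between cells *Axl* ranged in OSalive from 0 in 14 cells to 220.97 CPM, with a median of 24.6 CPM. At 50000 counts per cell *Axl* had a count in 61.3% of both UOS cells (68 cells) and OSalive cells (76 cells), in 69.4% of OSapop cells and in 81.2% of MOS cells.

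*Mertk* was highest in CatVII, at 38.7 CPM (37.97 to 39.4) in OSalive and 47.1 CPM (45.5 to 48.7) in OSapop. In the AnaVI sorts it was at 22.8 CPM (21.7 to 23.96) in UOS, 12.9 CPM (10.6 to 15.5) in MOS and 18.7 CPM (16.2 to 21.4) in LOS. The LOS value came largely from the marker-positive cells. They held 94.5% of the *Mertk* counts of LOS, a single one of them held 63%, and the other 17 cells of LOS stood at 3.28 CPM. The CatVI plates held 34.1 CPM (pl1), 37.5 CPM (pl2), 21.1 CPM (pl5) and 19.6 CPM (pl6). Both alive plates leaned on single cells. Plate pl2 had *Mertk* in 2 of 9 cells, with 77.6% of its counts in 1 cell, and was at 12.3 CPM without it. On pl1 the top cell held 36.9% of the counts, and the plate was at 23.7 CPM without it, near UOS. Neighbours in the order of levels overlapped apart from OSapop over OSalive, pl1 over UOS and LOS over MOS. At 50000 counts per cell *Mertk* had a count in 56 UOS cells (50.5%, 40.8 to 60.1), 76 OSalive cells (61.3%, 52.1 to 69.9) and 57 of 85 OSapop cells (67.1%, 56.02 to 76.9). These limits overlap, so the difference in the share of *Mertk* cells between UOS and OSalive was not resolved at this depth. At 10000 annotated counts it was 37.5% in UOS (28.5 to 47.1) and 66.1% in OSalive (57.1 to 74.4), without overlap.

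Set on one scale per length, the receptors kept the order *Axl* over *Mertk* over *Tyro3* in 8 of the 9 groups, and pl2 put *Mertk* first. Levels here are CPM per kilobase of the canonical transcript. In UOS *Axl* was at 9.36, *Mertk* at 4.90 and *Tyro3* at 0.63, whereas in OSalive they were at 9.72, 8.31 and 3.33. *Axl* therefore exceeded *Mertk* by 1.91-fold in UOS, 4.92-fold in MOS, 1.17-fold in OSalive and 1.11-fold in OSapop. As a share of the summed receptor level, *Tyro3* made up 1.70% in LOS, 2.69% in MOS and 4.20% in UOS. It made up 15.6% in OSalive, 14.6% in OSapop and 21.2% on pl5, beside 2.49% on pl6. The mix of receptors thus moved from mostly *Axl* in AnaVI (62.9% to 80.9%) towards all 3 receptors in CatVII (*Axl* 44.9% to 45.5%).

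**Figure D2:**
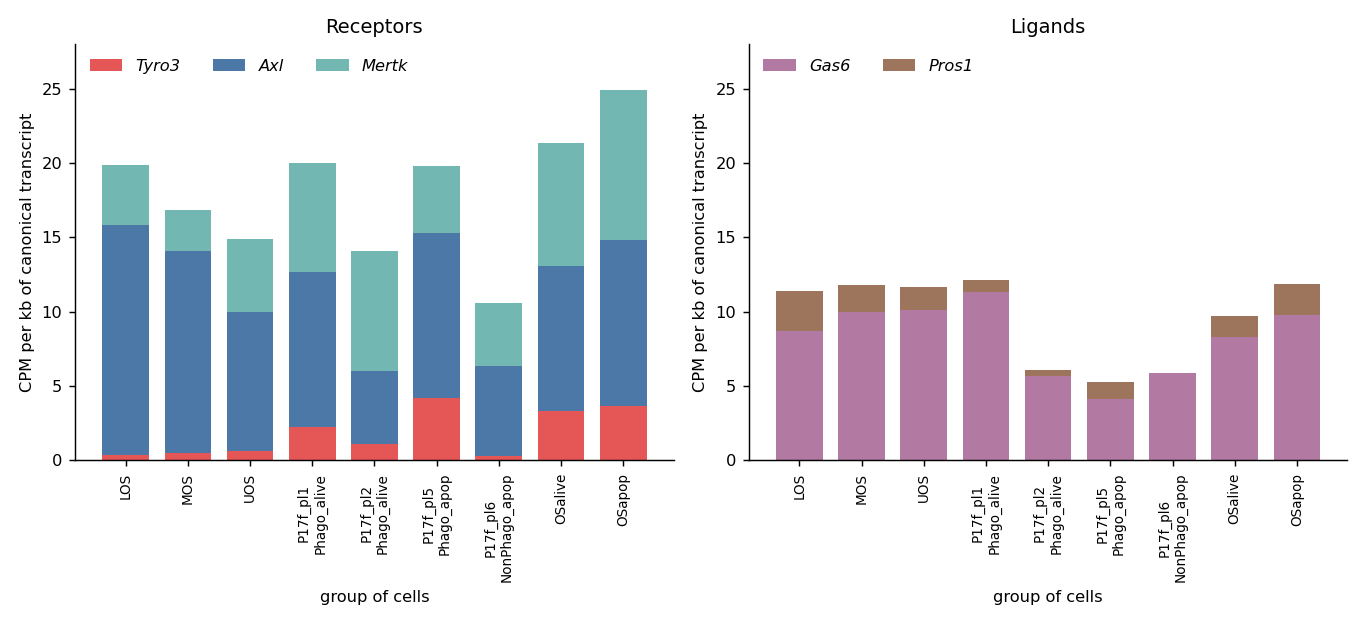
Stacked bars give the level of each receptor (left) and each ligand (right) in CPM per kilobase of canonical transcript for the 9 groups of cells. The *Tyro3* and *Mertk* parts are larger in OSalive and OSapop than in UOS. *Gas6* makes up most of the summed *Gas6* and *Pros1* level in every group.

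Of *Gas6* and *Pros1*, *Gas6* had the higher level in every group. It was at 25.01 CPM (22.1 to 28.2) in LOS, 28.7 CPM (25.2 to 32.5) in MOS, 29.1 CPM (27.8 to 30.4) in UOS, 23.9 CPM (23.3 to 24.4) in OSalive and 28.1 CPM (26.9 to 29.3) in OSapop. The CatVI plates held 32.6 CPM (pl1), 16.3 CPM (pl2), 11.8 CPM (pl5) and 16.8 CPM (pl6). Each neighbour in the order of these 9 levels had an overlapping interval, so *Gas6* showed no step in this order, although UOS and OSalive, which are not neighbours in it, did not overlap. The share of *Gas6* cells depended on which counts were made equal. At 50000 gene counts per cell 80 UOS cells had a *Gas6* count (72.1%, 62.8 to 80.2), against 56 OSalive cells (45.2%, 36.2 to 54.3) and 48 of 85 OSapop cells (56.5%, 45.3 to 67.2). The median over cells at their own depth was 30.3 CPM in UOS and 15.8 CPM in OSalive. With each cell thinned to 10000 counts of annotated genes instead, the shares were 59.8% in UOS (50.1 to 68.97) and 60.5% in OSalive (51.3 to 69.1), so the gap between these sorts was not seen there. The summed levels were within 1.22-fold of each other.

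*Pros1* was sparse throughout. It was at 9.52 CPM (7.76 to 11.6) in LOS, 6.44 CPM (4.85 to 8.38) in MOS, 5.60 CPM (5.06 to 6.19) in UOS, 5.12 CPM (4.86 to 5.39) in OSalive and 7.38 CPM (6.77 to 8.03) in OSapop. On the CatVI plates it rested on 15 counts (pl1, 2.74 CPM), 3 counts (pl2, 1.32 CPM), 19 counts (pl5, 4.23 CPM) and 0 counts (pl6, where 3 counts would be 1.63 CPM). All neighbouring intervals overlapped. In LOS all *Pros1* counts were in marker-positive cells, 76.5% of them in 1 cell. On pl1 and pl2 all *Pros1* counts were in marker-positive cells as well. In UOS and OSalive the marker-positive cells held 26.1% and 4.01% of the *Pros1* counts, and without them the levels were 5.35 and 5.55 CPM. At 50000 counts per cell 20.7% of UOS, 13.7% of OSalive and 15.3% of OSapop cells had a count. Per length *Gas6* exceeded *Pros1* by 6.33-fold in UOS, 5.69-fold in OSalive and 4.65-fold in OSapop.

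**Figure D3:**
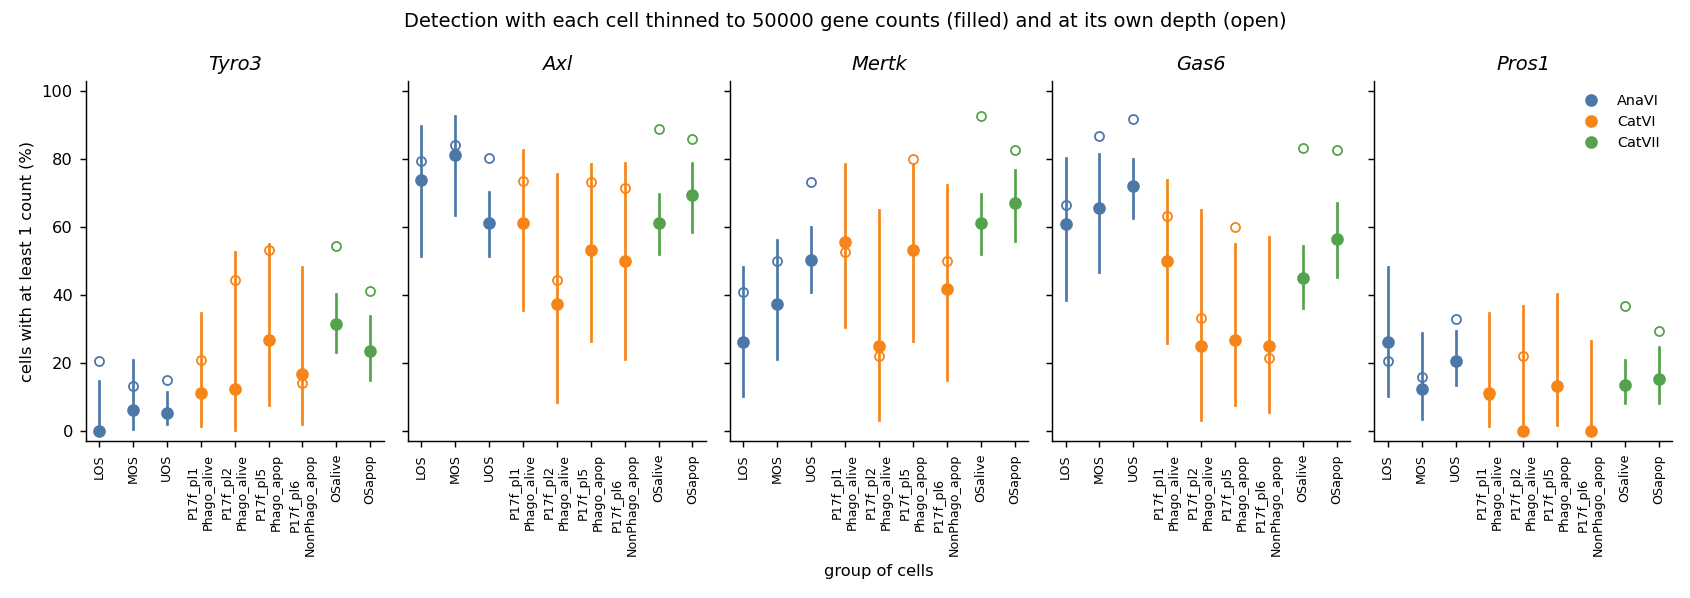
Filled points give the share of cells with at least 1 count after each cell was thinned to 50000 gene counts, with exact binomial 95% limits. Open points give the share at own depth. A filled point can exceed its open point because shallower cells were left out. At 50000 counts *Tyro3* was found in 5.41% of UOS and 31.5% of OSalive cells, and *Gas6* in 72.1% and 45.2%, a gap that was not seen at 10000 annotated counts (59.8% and 60.5%).

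The main contrast of stage within the upper follicle was OSalive against UOS, which also differ in the region label (upper against upper-middle) and in depth, so that stage, region and plate cannot be told apart. *Tyro3* had a log2 ratio of 2.41 (2.20 to 2.64, exact binomial interval), which is 5.33-fold. It was the only one of the 5 members past 2-fold in CPM. Among the 14159 genes that reached 100 counts in the 2 groups together, 11.5% were 2-fold or more higher and 26.6% 2-fold or more lower. *Mertk* had a ratio of 0.76 (0.69 to 0.84), *Axl* of 0.06 (−0.002 to 0.11), *Pros1* of −0.13 (−0.29 to 0.04) and *Gas6* of −0.28 (−0.36 to −0.21). The median of all genes was −0.32, and other scalings moved every ratio up by 0.11 to 0.59. Relative to that median *Tyro3* was at 2.74, *Mertk* at 1.09, *Axl* at 0.38, *Pros1* at 0.19 and *Gas6* at 0.04. *Tyro3* stayed past 2-fold under all 12 alternatives (2.41 to 3.63). *Mertk* stayed above 0 under all 12 (0.62 to 1.36) and was past 2-fold under 5, whereas *Gas6* was above 0 under 5 of the 12, among them median-of-ratios (0.15) and TMM scaling (0.20).

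The CatVI PhagoHFSC_alive cells of pl1 and pl2 together, set against the same UOS cells, had 1 member at least 2-fold higher and 1 at least 2-fold lower. Over the 11281 genes with enough counts 14.9% were higher and 28.3% lower, and with no minimum on counts, 29.5% and 14.9%. *Tyro3* had a ratio of 1.58 (1.13 to 2.01), and *Pros1*, on 18 counts, of −1.27 (−2.04 to −0.59). *Mertk* was at 0.62 (0.43 to 0.81), *Axl* at −0.08 and *Gas6* at −0.06. Without pl1 *Axl* was at −0.92 and *Gas6* at −0.83, and without pl2 at 0.16 and 0.17. *Mertk* stayed above 0 under all 14 alternatives, down to 0.07 as a mean over cells, while *Gas6* reached −1.51 at 10000 annotated counts. Scaled per count of the ERCC spike-ins, *Gas6* was at 1.26, *Axl* at 1.24 and *Mertk* at 1.95. The *Tyro3* ratio rested on single cells, since it was 0.64 when the top cell of each group was left out, 0.77 without pl1 and 1.82 without pl2. All *Pros1* counts of these plates were in marker-positive cells. The plates also held little *Cd34* beside UOS, so stage and this difference cannot be told apart. Both contrasts with UOS share the UOS cells, so their common direction for *Tyro3* is not independent evidence.

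**Figure D4:**
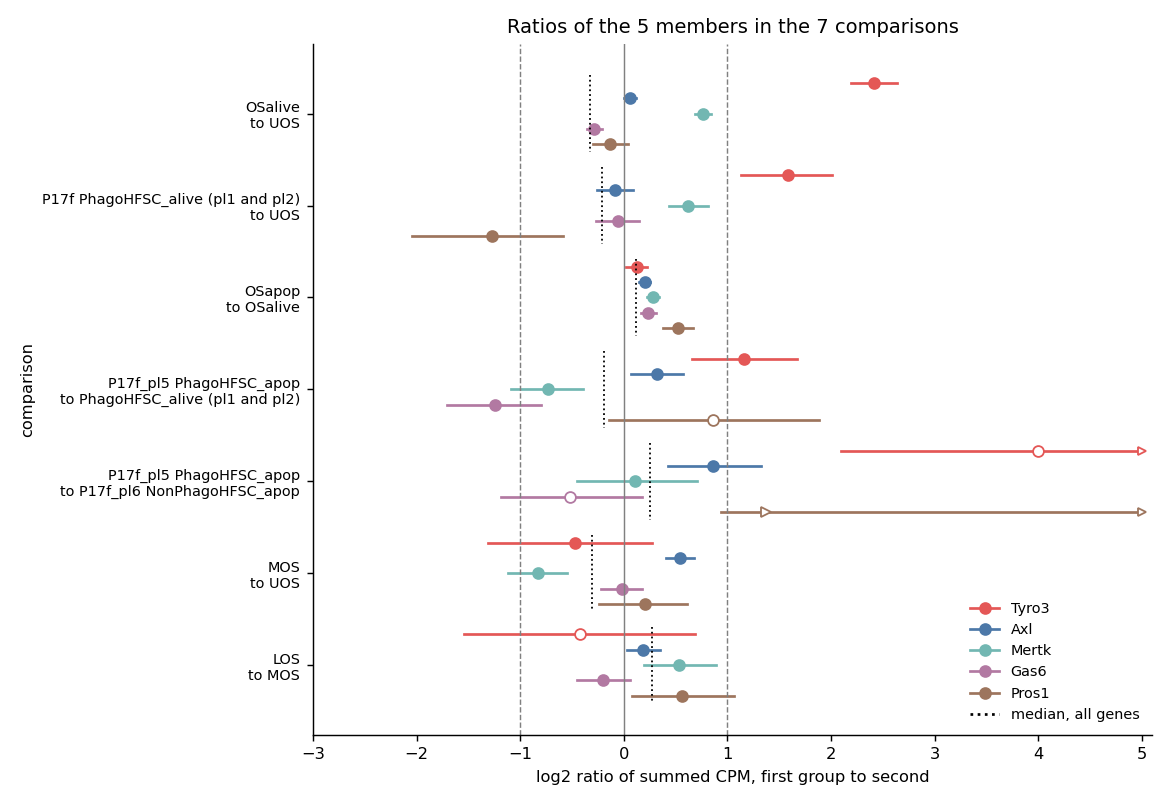
Points give the log2 ratio of summed CPM for each member in 7 comparisons, with exact binomial 95% intervals. Dashed lines mark 2-fold, dotted lines the median of all genes, open symbols members under 100 counts, and triangles a lower bound or an interval that runs past the axis. *Tyro3* lies right of 2-fold in 4 of the 7 comparisons.

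Within CatVII, OSapop and OSalive had much the same levels. None of the 5 members was past 2-fold, beside 10.6% of genes higher and 11.3% lower. All 5 ratios were above 0, from 0.12 for *Tyro3* (0.02 to 0.22) to 0.53 for *Pros1* (0.38 to 0.67), with *Axl* at 0.20, *Gas6* at 0.23 and *Mertk* at 0.28. The median of all genes was 0.12. The sign for *Tyro3* was not stable, since its ratio was below 0 under 5 of 12 alternatives, among them TMM scaling (−0.07) and thinning to 10000 annotated counts (−0.52). At that last setting *Gas6* (−0.48) and *Mertk* (−0.10) were below 0 as well, while *Axl* and *Pros1* kept their sign under all 12. Its thinned shares in the 2 sorts also had overlapping limits.

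The CatVI plates allow the same question on far fewer cells. PhagoHFSC_apop (pl5) against PhagoHFSC_alive (pl1 and pl2) gave *Tyro3* 2.24-fold higher, a log2 ratio of 1.16 (0.66 to 1.67), and *Gas6* 2.36-fold lower, a ratio of −1.24 (−1.70 to −0.80). The background was 10.8% of genes higher and 22% lower. *Mertk* was at −0.73 (−1.08 to −0.39), *Axl* at 0.32 (0.07 to 0.57) and *Pros1* at 0.86 (−0.15 to 1.88). At own depth *Mertk* had a count in 12 of 15 pl5 cells (median over cells 13.8 CPM). In the alive plates it had one in 12 of 28 cells (median 0), so detection ran against the ratio. Without pl1, *Axl* was at 1.16 and *Pros1* at 1.67, both past 2-fold, and without pl2 they were at 0.08 and 0.63. The *Tyro3* ratio was 1.97 without pl1 and 0.93 without pl2, and as a mean over cells it was 0.62. The *Gas6* ratio was −0.47 without pl1 and turned to 0.53 at 10000 annotated counts. These sizes are close to the differences between pl1 and pl2 themselves, which were 1.05 for *Tyro3* and 0.998 for *Gas6*.

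Between the apop plates, PhagoHFSC_apop (pl5) and NonPhagoHFSC_apop (pl6), *Tyro3* stood at 78 against 2 counts, a ratio of 15.96-fold with a counting interval of 4.27 to 134.1. *Pros1* stood at 19 against 0 counts, which is 2.59-fold with pl6 set to 3 counts, and its lower counting limit was 1.91-fold. *Tyro3* and *Pros1* are both under the minimum of 100 counts. With no minimum, 18.4% of all genes were 2-fold or more higher and 19.6% lower. With the minimum, neither *Axl* (0.86, 0.42 to 1.33) nor *Mertk* (0.11, −0.46 to 0.71) was past 2-fold, beside 22.9% of genes higher and 7.65% lower. *Gas6* was at −0.51 (−1.18 to 0.17). At 50000 counts per cell *Tyro3* was found in 4 of 15 cells of pl5 and 2 of 12 cells of pl6, and the limits (7.79% to 55.1% and 2.09% to 48.4%) overlap almost entirely.

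Along the AnaVI follicle none of the 5 members was past 2-fold in either step. For MOS against UOS 6.56% of genes were higher and 23.2% lower, and for LOS against MOS 22.6% and 10.2%. *Axl* was higher in MOS than in UOS (0.54, 0.40 to 0.67) and *Mertk* lower (−0.82, −1.12 to −0.54), while *Gas6* was at −0.02. *Axl* kept its sign in all 12 alternatives and *Mertk* in 11. From MOS to LOS *Axl* had a ratio of 0.19 and *Mertk* of 0.54. The *Mertk* ratio turned to −1.95 and the *Pros1* ratio from 0.56 to −2.83 when the marker-positive cells were left out, so the LOS values of both genes followed those cells.

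Receptors and ligands were found together in most cells. At own depth 372 of the 463 cells (80.3%, 76.4 to 83.9) had a count of at least 1 receptor and at least 1 ligand. A further 69 cells had a receptor only, 11 a ligand only and 11 neither, and 41 had all 5 members. The share with both was 91.1% in UOS, 87.2% in OSalive, 85.9% in OSapop (79 of 92), 81.6% in MOS (31 of 38) and 61.5% in LOS (24 of 39). On the CatVI plates it was 11 of 19 cells (pl1), 4 of 9 (pl2), 9 of 15 (pl5) and 3 of 14 (pl6). Depth moved with this class, since the cells with both had a median of 616252 counts and those with a receptor only 234302.

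At 50000 counts per cell the share with both fell to 63.96% in UOS (54.3 to 72.9), 46.8% in OSalive (37.8 to 55.9) and 58.8% in OSapop (47.6 to 69.4). Cells with a receptor only made up 19.8% of UOS (12.9 to 28.5), 40.3% of OSalive (31.6 to 49.5) and 31.8% of OSapop (22.1 to 42.8). At this number of gene counts OSalive held more receptor-only cells than UOS. With annotated genes thinned to 10000 counts instead, receptor-only cells made up 26.8% of UOS (18.9 to 35.98) and 31.5% of OSalive (23.4 to 40.4), with overlapping limits. The share with both was then 51.8% in UOS and 61.3% in OSalive, so the order of these sorts depends on which counts are made equal. On pl6, 10 of 14 cells had a receptor and no ligand at own depth (71.4%, 41.9 to 91.6), and these 10 cells had a median of 112875 counts against 85447 in the 3 cells with both.

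**Figure D5:**
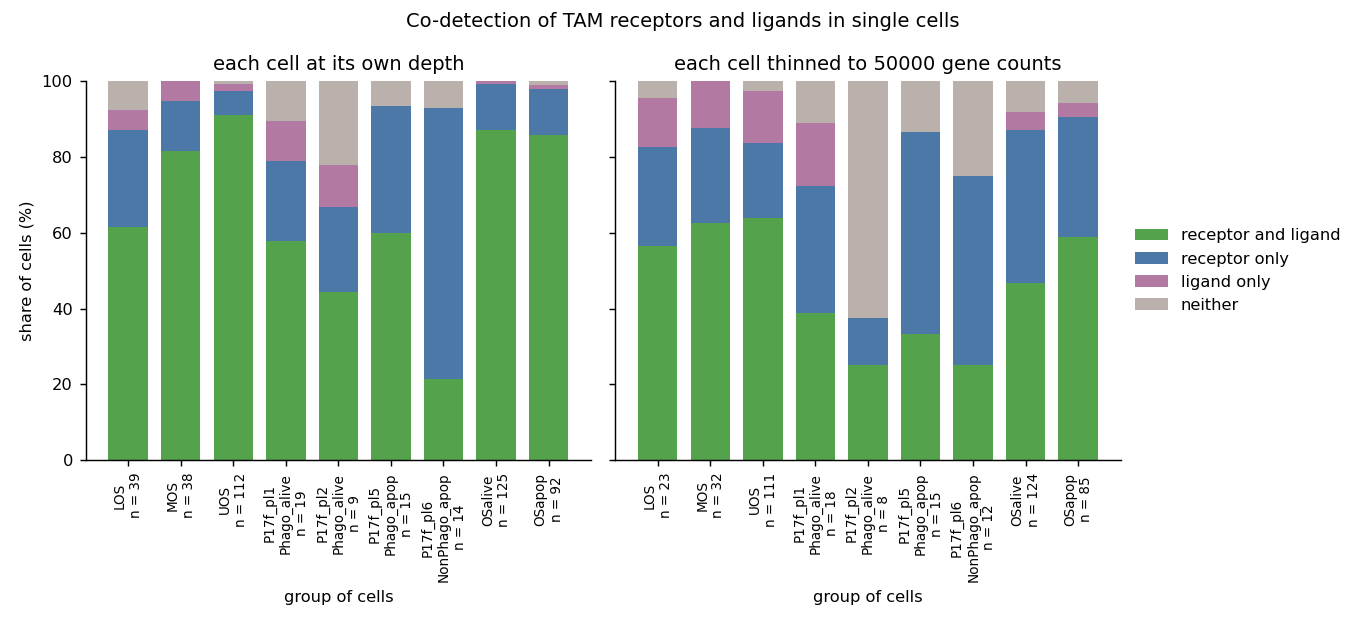
Stacked bars divide the cells of each group into those with at least 1 receptor and 1 ligand, a receptor only, a ligand only, or neither, at own depth (left) and thinned to 50000 gene counts (right). At 50000 gene counts 63.96% of UOS and 46.8% of OSalive cells held both, whereas at 10000 annotated counts, not plotted, it was 51.8% and 61.3%.

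Cells with all 3 receptors were more common in OSalive than in UOS. The most common pattern over all groups was *Axl* with *Mertk* without *Tyro3* (36.3% of the 463 cells), followed by all 3 receptors (120 cells) and *Axl* alone (79 cells). All 3 receptors were found in 61 OSalive cells (48.8%, 39.8 to 57.9), 28 of 92 OSapop cells (30.4%) and 14 UOS cells (12.5%, 7.01 to 20.1). On the CatVI plates it was 2 of 19 cells (pl1), 1 of 9 (pl2), 5 of 15 (pl5) and 2 of 14 (pl6). At 50000 counts the share became 12.9% in OSalive (7.56 to 20.1), 8.24% in OSapop (3.38 to 16.2) and 1.80% in UOS (0.22 to 6.36). OSalive still lay above UOS, while the limits of OSapop overlapped those of UOS. On the CatVI plates it became 1 of 18 cells (pl1), 0 of 8 (pl2), 0 of 15 (pl5) and 1 of 12 (pl6). *Tyro3* alone among receptors was rare, in 7 of 463 cells. Of the 68 *Tyro3* cells of OSalive, 64 also had *Axl* and 64 also had *Mertk* at own depth. Over all OSalive cells, with or without *Tyro3*, *Axl* was already found in 88.8% and *Mertk* in 92.8%.

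At 50000 counts, *Axl* with *Pros1* in OSalive was the only receptor and ligand pair of UOS, OSalive and OSapop whose limits with and without the receptor did not overlap. In OSalive, *Gas6* was found in 17 of 39 cells with *Tyro3* (43.6%, 27.8 to 60.4) and 39 of 85 cells without it (45.9%, 35.02 to 57.04). It was found in 40 of 76 cells with *Mertk* (52.6%, 40.8 to 64.2) and 16 of 48 without (33.3%, 20.4 to 48.4). In OSapop the same shares were 38 of 57 with *Mertk* (66.7%, 52.9 to 78.6) and 10 of 28 without (35.7%, 18.6 to 55.9), while in UOS they were 67.9% and 76.4%, in the other direction. *Pros1* was found in 16 of 76 OSalive cells with *Axl* (21.1%, 12.5 to 31.9) and 1 of 48 without (2.08%, 0.05 to 11.1). At 10000 annotated counts these shares were 22.4% (13.6 to 33.4) and 8.33% (2.32 to 19.98), with overlapping limits. In UOS and OSapop the *Pros1* share was lower with *Axl* than without, at 19.1% against 23.3% and 13.6% against 19.2%. Cells of 1 pool are not replicates, and no test was made.

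Genes around the TAM pathway were described by a list of 23. It holds the Gla-domain carboxylase *Ggcx* and the vitamin K reductases *Vkorc1* and *Vkorc1l1*, the sheddases *Adam10* and *Adam17*, the other reported ligands *Tulp1*, *Tub* and *Lgals3*, the interferon arm, adaptors and kinases, and the liver X receptors. Of the 19 with at least 100 counts in OSalive against UOS, 2 were at least 2-fold higher and 2 at least 2-fold lower. Over all genes 11.5% were higher and 26.6% lower. The median ratio of the 19 was 0.14, beside −0.32 over all genes. *Vkorc1l1* (10.1 against 4.65 CPM) and *Socs3*, a suppressor of cytokine signalling (14.03 against 6.26 CPM), were higher. At own depth *Socs3* had a count in 36% of OSalive and 40.2% of UOS cells, and *Vkorc1l1* in 51.2% and 34.8%. *Lgals3*, which encodes galectin-3 (20.7 against 47.2 CPM), and *Ifnar2*, an interferon receptor chain (1.58 against 4.29 CPM), were lower. *Ggcx* was at 7.64 and 8.85 CPM. *Tub*, *Tulp1*, *Vav1* and *Nr1h3* were under 100 counts, so *Gas6* and *Pros1* were accompanied by *Lgals3* alone of the other listed ligands.

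In the CatVI PhagoHFSC_alive cells against UOS, 14.9% of all genes were 2-fold or more higher and 28.3% lower. *Vkorc1l1* was higher in the 2 plates together, at 20.1 against 4.65 CPM. This rested on pl1 (26.8 CPM), since pl2 was at 3.97 CPM (1.82 to 7.54, 9 counts), not above UOS. *Src* (10.97 against 48.4 CPM), *Tns2* (6.84 against 52.6 CPM), *Pik3r1* (26.5 against 67.2 CPM) and *Vkorc1* (5.68 against 16.3 CPM) were 2-fold or more lower. Within CatVII none of 19 was past 2-fold between OSapop and OSalive, beside 10.6% of all genes higher and 11.3% lower. The other comparisons had between 6 and 19 listed genes with enough counts, of which 1 to 3 were higher and 0 to 3 lower. Over all genes, 6.56% to 22.9% were higher and 7.65% to 23.2% lower in these comparisons.

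In OSalive, 85 cells with a count of *Cd34*, a marker of bulge stem cells, and 40 cells without one had similar depth, with medians of 2155700 and 2259480 counts. *Axl* was higher in cells with *Cd34* (51.6 against 30.1 CPM), and *Pros1* was lower (3.67 against 8.53 CPM, a log2 ratio of −1.22, −1.36 to −1.07). *Gas6* was at 22.1 against 28.1 CPM. *Tyro3* (13.3 against 14.9 CPM) and *Mertk* (37.8 against 40.8 CPM) differed by less than 1.2-fold in CPM. The share of cells with a *Pros1* count was similar, at 37.6% with *Cd34* and 35% without, and 1 OSalive cell held 13.9% of the *Pros1* counts. For *Tyro3* the shares were 60% and 42.5%, in the other direction from its CPM. They were 92.9% and 80% for *Axl*, 84.7% and 80% for *Gas6* and 92.9% and 92.5% for *Mertk*. No share over all genes is set beside this split.

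Over the 9 group levels, taken as log2(CPM + 1), *Tyro3* correlated most closely with *Foxp4* (Pearson r = 0.92), *Septin10* (0.92) and *Tmbim1* (0.91) among 7156 genes. For *Mertk* the closest were *Ezh1* (0.96), *Wwp2* and *Pcbp3* (0.90 each), and for *Axl* they were *Asf1a* (0.96), *Gapvd1* (0.95) and *Fgfr3* (0.94). The closest to *Gas6* were *Mrpl49* (0.98), *Zfp275* and *Ddx51* (0.97 each), and to *Pros1* they were *Med23*, *Ints5* and *Nipsnap2* (0.96 each). Among the members themselves *Axl* and *Pros1* were closest (0.84), then *Tyro3* and *Mertk* (0.67), whereas *Axl* and *Mertk* were at −0.34. These are descriptions over 9 points that share depth and plate with the levels, and so many genes compared over so few points give high values readily.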

How the data were processed

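Single wild-type cells were sequenced with Smart-seq2. The authors aligned reads to mm39 with STAR (v.2.6) and quantified genes with Salmon (v.1.4.0), as their methods and processing notes state, and deposited estimated counts per gene and cell. These were rounded to whole numbers (0.471% of values were not whole). Spike-ins were left out of CPM. Identifiers were matched to GENCODE (GRCm39). Cells had at least 2000 detected genes, the study's own filter. 1 cell with contradictory labels and 1 without counts were left out. Counts were summed per group (Python 3.11.15, numpy 2.4.6, scipy 1.17.1, with edgeR 4.0.16 for TMM), the depth per group running from 1840010 to 287378000 counts. Each group is 1 sample, so no p-value was computed, and 2-fold was the rule of size. Named genes are the members, the pathway list and, per member, the 3 closest genes over the 9 groups. The members, lists and comparisons were chosen with earlier results of these data known. Wells had been screened by *Gapdh* PCR against multiple cells, and no doublet caller was run. 11 to 14 alternatives were tried per ratio. 1 gene of the pathway list is not reported here.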

Additional observations from a re-analysis of the deposited data

Results flagged for a closer look

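In summed CPM, *Mertk* and *Gas6* had opposite directions between apop and alive cells at the 2 catagen stages. The log2 ratio of *Mertk* was 0.28 at CatVII (OSapop to OSalive) and −0.73 at CatVI (pl5 to pl1 and pl2). That of *Gas6* was 0.23 at CatVII and −1.24 at CatVI. Each of the 4 counting intervals excluded 0. Detection of *Mertk* at CatVI ran the other way at own depth, with a count in 12 of 15 pl5 cells and 12 of 28 alive cells. Without the top cell of each plate, *Mertk* was at 23.7 CPM on pl1, 12.3 CPM on pl2 and 17.6 CPM on pl5. Whether the stages differ was not tested, since each arm is 1 pool of cells, the CatVI arms hold 15 and 28 cells, and the CatVI sort labels add PhagoHFSC to apop and alive. The *Gas6* ratio at CatVI was −0.47 without pl1. With annotated genes thinned to 10000 counts, *Gas6* changed sign at both stages, to −0.48 at CatVII and 0.53 at CatVI, and *Mertk* was below 0 at both, at −0.10 and −0.32.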

How the results depend on the processing

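No paired analysis was possible because each group is 1 sample and the cells carry no shared replicate numbers. The number of members past 2-fold in OSalive against UOS rose from 1 to 2, by *Mertk*, with annotated genes as denominator, median-of-ratios, TMM, ERCC scaling and thinning to 10000 annotated counts. For PhagoHFSC_alive against UOS it went from 2 to 1 as a mean over cells, at 50000 counts, without pl1 and without the top cells, and to 4 per ERCC count. For pl5 against PhagoHFSC_alive it went from 2 to 0 as a mean over cells, to 1 at 10000 annotated counts and without pl2, and to 3 without pl1, without the top cells and without marker-positive cells. For pl5 against pl6 it went from 2 to 1 as a mean over cells and at 10000 annotated counts, and to 3 per ERCC count, at 50000 counts and without marker-positive cells. For MOS against UOS it was 1 instead of 0 at 10000 annotated counts. For LOS against MOS it was 3 per ERCC count, 1 at 50000 counts and 2 without marker-positive cells, a choice added after seeing the data. Among the ratios past 2-fold, the direction reversed for *Pros1* in PhagoHFSC_alive against UOS per ERCC count (0.053), and at 10000 annotated counts for *Gas6* in pl5 against PhagoHFSC_alive (0.53) and for *Pros1* in pl5 against pl6 (−0.21). The cause was not tested.

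The share of cells with both a receptor and a ligand, with detection at 5 or more counts, was 20.5% in LOS, 39.5% in MOS, 63.4% in UOS, 31.6% on pl1, 11.1% on pl2, 26.7% on pl5, 77.6% in OSalive and 60.9% in OSapop. At 10000 annotated counts it was 42.3% in LOS, 60% in MOS, 51.8% in UOS, 33.3% on pl1, 11.1% on pl2, 61.3% in OSalive and 62.8% in OSapop. At 50000 counts it was 62.5% in MOS, 63.96% in UOS, 46.8% in OSalive and 58.8% in OSapop. Of the single ratios and the shares of all genes past 2-fold, 280 values stayed inside the counting interval of the value reported. Another 170 moved beyond it and 3 reversed. Counting members under 2-fold as well, 67 of the 439 ratios under an alternative had the other sign, among them *Mertk* (−1.95) and *Pros1* (−2.83) in LOS against MOS without marker-positive cells, *Tyro3* in OSapop against OSalive and *Gas6* in OSalive against UOS. The CatVI plates hold 9 to 19 kept cells each, and *Tyro3* rested on 2 to 78 counts and *Pros1* on 0 to 19 counts per plate.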
